A study of Mus musculus with 20 samples.

Results

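Dominant negative HDAC4 and HDAC5 in muscle was set directly against the histone deacetylase inhibitor Scriptaid, gene by gene, on 10 of the 20 arrays of the study. Members were chosen by their labels alone: 5 arrays of dnHDAC4/5 legs of vehicle animals (HV) and 5 arrays of empty-vector legs of Scriptaid animals (ES). All were extensor digitorum longus (EDL) muscles of male C57Bl6 mice, 8 weeks old at vector injection, and all legs had received recombinant adeno-associated virus of serotype 6. In HV the vectors carried D832N HDAC4 and D861N HDAC5, at 2.5e+10 vector genomes of each in 30 µL, in the right leg, and the animals were injected 4 weeks later with vehicle, 5% DMSO. In ES the vector was empty, also in 30 µL, in the left leg. The animals were injected 4 weeks later with Scriptaid, and the labels list 5% DMSO as the vehicle here too. The 2 groups are therefore different animals, and vector, drug, leg and place on the slide all changed together and cannot be told apart in this comparison. The promoter of the vectors, the drug dose and the time from drug to dissection are not given in the sources used here. The sample titles of ES name vehicle, but the treatment entry, the description and the animal identifiers name Scriptaid, which was followed. The empty-vector legs of vehicle animals (EV, 5 arrays) are used only for values given side by side.

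Class IIa histone deacetylases, among them HDAC4 and HDAC5, sit on MEF2 transcription factors in muscle nuclei and keep MEF2 target genes low. Exercise and nerve activity signal through kinases that send them out of the nucleus, and denervation does the reverse, so that HDAC4 takes part in the gene programme of denervated muscle, with its acetylcholine receptor subunits. A dominant negative form competes with the native protein without its full function, whereas Scriptaid is a hydroxamate that blocks the catalytic site of several histone deacetylases. The comparison asks where a muscle with the mutant proteins differed from a muscle exposed to the drug.

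Values are log2 intensities after subtraction of the 75th percentile of each array, so 0 is that percentile, and a difference is HV minus ES. limma passed 0 of 14379 genes at an adjusted p under 0.05 (0% of all genes, smallest adjusted p = 0.0617), so no gene is described as changed and every difference below is a value that did not pass unless another fit is named. Arrays of both groups shared slides, and with the slide as a random block 6 genes passed: Rab27b and Map3k6 (adjusted p = 0.0232 for each), Ggt6, Ppp1r3c and Srd5a1 (adjusted p = 0.0406 for each) and the clone A930003A15Rik. With the slide as a fixed term Ggt6 alone passed (adjusted p = 0.0419). At an unadjusted p under 0.05 stood 1623 genes, 713 of them higher in HV (4.96% of all genes tested) and 910 lower (6.33%). The groups did not overlap for 159 genes with HV above ES (1.11%) and for 243 with HV below ES (1.69%). The median difference over all genes was -0.01, and differences of more than 1 in size were found for 141 genes higher in HV and 88 lower. Of the genes at an unadjusted p under 0.05, 43.9% were higher in HV, but 56.1% were when the background was corrected with normexp.

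The 10 arrays had a 75th percentile of the intensity between 338.5 and 608.1, and 53.7% to 60.1% of their spots passed the scanner's test of being above background. Muscle fibre markers were bright in all of them: Acta1, skeletal actin, lay between 6.85 and 7.42 in HV and between 6.59 and 7.32 in ES. Replicate 5 of HV stood apart from the other 4 HV arrays for several genes that were high in HV, as shown for Chrna9 next, and without it limma passed 7 genes, all higher in HV. Replicate 4 of HV had the lowest tendon and fibroblast markers of its group. Values without these arrays are given where they moved a call or a list. Both arrays were singled out by the values of these same genes, so a pass without either is no separate evidence. The labels name separate animals, and the number of arrays limits the precision of every value.

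The largest difference was that of Chrna9, which encodes the α9 nicotinic receptor subunit studied mainly in cochlear hair cells. It was -0.13, 0.68, -0.42, 1.69 and -5.38 in HV, against -6.18, -6.20, -6.05, -5.13 and -5.90 in ES. The first 4 HV arrays lay far above every ES array, and HV replicate 5 lay within the ES range. Chrna9 was not well above background on any ES array and was so on 4 HV arrays. In the processing reported the mean of HV was therefore at least 14.1-fold higher than ES, which does not hold for HV replicate 5. The fitted difference was 5.18 ± 1.08 (SE, adjusted p = 0.172), and without HV replicate 5 it was 6.35 ± 0.41 (adjusted p = 0.000511). That array was set apart by its low Chrna9 value, so the smaller p without it is no separate evidence. With normexp background correction the difference of Chrna9 was 2.69, which is less than that bound.

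The promoters of Chrna9, of 2 other genes of the neuromuscular junction and of Igfn1, described with them, are shown because their transcripts lay higher in HV. E-boxes (CANNTG, read on both strands), which bind myogenic factors such as myogenin, are in capitals; in Igfn1 a pair of them adjoin. The windows of 300 bases span the start of the gene, 5′ to 3′ on the gene's strand, from RefSeq on GRCm38.p6: chr5:65966874-65967173 (plus strand), chr2:73580289-73580588 (minus), chr4:58285712-58286011 (plus) and chr1:136006293-136006592 (minus).
Chrna9: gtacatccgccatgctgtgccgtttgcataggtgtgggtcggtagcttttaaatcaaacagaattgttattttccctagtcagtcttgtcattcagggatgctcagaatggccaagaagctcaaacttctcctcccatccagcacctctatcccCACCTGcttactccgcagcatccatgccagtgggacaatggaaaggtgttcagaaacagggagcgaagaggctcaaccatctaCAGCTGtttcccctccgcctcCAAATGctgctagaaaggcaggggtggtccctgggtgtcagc
Chrna1: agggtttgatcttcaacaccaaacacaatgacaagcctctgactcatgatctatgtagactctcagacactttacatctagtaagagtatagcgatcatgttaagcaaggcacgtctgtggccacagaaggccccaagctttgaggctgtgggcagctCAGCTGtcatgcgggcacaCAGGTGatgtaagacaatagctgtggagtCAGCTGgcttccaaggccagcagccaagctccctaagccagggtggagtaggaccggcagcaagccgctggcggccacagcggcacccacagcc
Musk: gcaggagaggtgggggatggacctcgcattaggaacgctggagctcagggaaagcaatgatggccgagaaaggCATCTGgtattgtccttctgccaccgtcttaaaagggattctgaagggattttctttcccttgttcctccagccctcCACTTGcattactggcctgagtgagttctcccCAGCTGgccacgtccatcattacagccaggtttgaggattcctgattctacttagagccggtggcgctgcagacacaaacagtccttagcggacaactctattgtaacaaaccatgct
Igfn1: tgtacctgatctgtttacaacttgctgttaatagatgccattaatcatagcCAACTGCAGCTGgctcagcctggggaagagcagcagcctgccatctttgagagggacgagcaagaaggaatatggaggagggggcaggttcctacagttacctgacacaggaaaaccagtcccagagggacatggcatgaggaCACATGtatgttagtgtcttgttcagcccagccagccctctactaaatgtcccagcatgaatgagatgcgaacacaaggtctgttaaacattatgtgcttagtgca
Each of these windows holds 3 E-boxes. Of the 18 tested genes of the denervation and junction list, 12 had a promoter in the RefSeq table, and all 12 held an E-box, against 72.3% of all 32851 promoters. So did all 9 promoters of the slow fibre list and all 6 of the adipocyte list, so this is not particular to junction genes. A match is a run of letters and not a shown binding site. Myog, which encodes myogenin and belongs to the junction list, lay lower in HV, with a difference of -0.45. With 1 array left out it ranged between -0.62 and -0.15.

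The neuromuscular junction is the synapse where motor nerves reach the fibre, and several, but not all, of its muscle-side genes are raised along the whole fibre after denervation. Of the 18 tested genes of this list 12 were higher and 6 lower in HV, with 6 higher and 2 lower at an unadjusted p under 0.05 and a median of 0.24. Over all genes tested, 4.96% were higher and 6.33% lower at such a p. Musk, the receptor kinase that organises the synapse, was -2.03, -1.89, -2.75, -1.48 and -4.17 in HV, against -3.12, -4.30, -3.76, -4.13 and -3.19 in ES. All HV arrays but replicate 5 lay above all ES arrays, with a difference of 1.24 ± 0.47 (adjusted p = 0.369), and 1.66 ± 0.31 (adjusted p = 0.092) without that array; with normexp it was 0.62. Lrp4, the agrin receptor that partners MuSK, was 0.51, 0.90, 0.89, 1.72 and 0.35 in HV, against 0.09, 0.14, 0.31, 0.26 and 0.26 in ES. Its groups did not overlap, and it differed by 0.66 ± 0.22 (adjusted p = 0.319).

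Chrna1, the α subunit of the muscle acetylcholine receptor, had 3.05, 3.05, 2.32, 3.97 and 2.02 in HV, against 1.79, 2.43, 2.32, 2.18 and 1.14 in ES. Its groups overlapped, and the difference was 0.91 ± 0.37 (adjusted p = 0.388), or 1.13 ± 0.35 without HV replicate 5. Gadd45a, a stress gene that denervation and HDAC4 are known to raise in mouse muscle, had 2.89, 3.94, 2.33, 3.45 and 1.97 in HV, against 2.18, 2.04, 1.84, 2.23 and 1.80 in ES. Here too HV replicate 5 alone lay inside the ES range, and the difference was 0.90 ± 0.33 (adjusted p = 0.359), or 1.13 ± 0.28 for Gadd45a without that array. Members of the list also lay the other way: Dok7, the adaptor that activates MuSK, had a difference of -0.47 ± 0.15 (adjusted p = 0.280), and Erbb3, a neuregulin receptor also made by Schwann cells, one of -0.36 ± 0.09 (adjusted p = 0.223) with HV below ES on all 5 slides. Schwann cell markers were lower in HV for 7 of 8 tested members, with a median of -0.46 and a summed linear level of 4.42 to 18.4 in HV against 8.95 to 16.8 in ES; their part in the junction values was not tested. In bulk muscle, more cells of a type and more RNA per cell cannot be told apart. Without HV replicate 4 the junction list had 3 members higher and 3 lower at an unadjusted p under 0.05, and without ES replicate 5 it had 5 higher and 4 lower; its median without ES replicate 1 was 0.14.

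**Figure D1:**
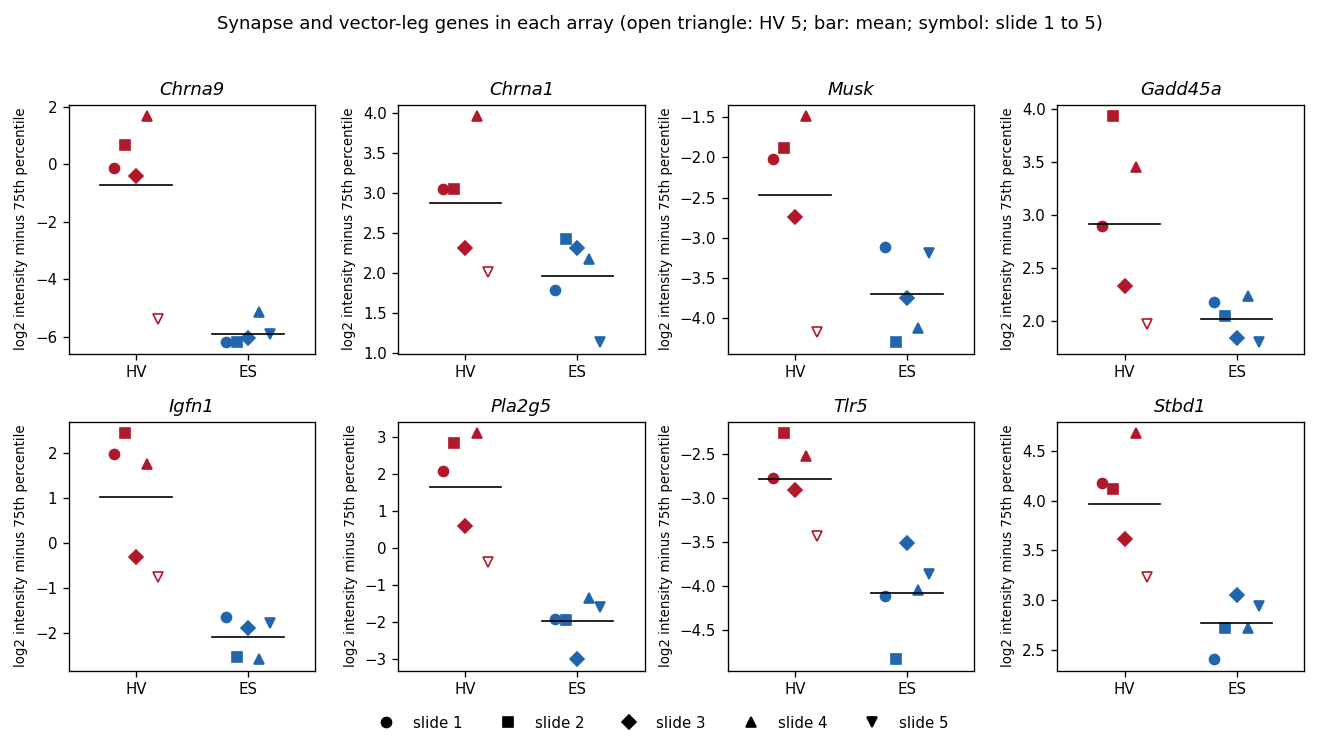
Log2 intensity minus the array's 75th percentile for 8 genes on each HV array (red, left) and each ES array (blue, right), with a bar at the group mean and a symbol for each slide. HV replicate 5, the open triangle, lies within the ES range for Chrna9, Chrna1, Musk and Gadd45a and is the lowest HV array in all 8 panels.

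Igfn1, an immunoglobulin and fibronectin domain protein of the Z-disc of skeletal muscle, had 1.98, 2.44, -0.31, 1.74 and -0.76 in HV, against -1.64, -2.51, -1.88, -2.58 and -1.77 in ES. The groups did not overlap, HV replicates 3 and 5 were the lowest of HV, and the difference was 3.10 ± 0.59 (adjusted p = 0.153), or 3.54 ± 0.50 (adjusted p = 0.0539) for Igfn1 without HV replicate 5. Ankrd1, an ankyrin repeat protein of the sarcomere that stretch and denervation raise, had 2.47, 2.61, 2.48, 2.40 and 1.88 in HV, against -0.50, 1.38, 0.63, 1.56 and 1.02 in ES. It differed by 1.55 ± 0.34 (adjusted p = 0.201), again without overlap. The sarcomere remodelling list as a whole had 11 members higher and 5 lower, of which only Igfn1 and Ankrd1 had an unadjusted p under 0.05, and a median of 0.12.

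Pla2g5, a secreted phospholipase A2 that releases fatty acids from membrane lipids, had 2.08, 2.82, 0.59, 3.10 and -0.40 in HV, against -1.91, -1.95, -3.02, -1.36 and -1.59 in ES. Every HV array lay above every ES array, and the difference was 3.60 ± 0.63 (adjusted p = 0.149). Without HV replicate 5 it was 4.11 ± 0.51 and passed (adjusted p = 0.0364). The carboxylesterases Ces2c and Ces2b, which cleave ester bonds of drugs and lipids, stood beside it. Ces2c had -2.26, -2.19, -2.37, -1.51 and -3.87 in HV, against -4.71, -6.26, -4.99, -4.29 and -5.05 in ES, with no overlap and a difference of 2.62 ± 0.45 (adjusted p = 0.149). It was well above background on only 1 ES array, and without HV replicate 5 it passed (2.98 ± 0.36, adjusted p = 0.0364). With normexp Ces2c differed by 1.08. Ces2b differed by 2.47 ± 0.55 (adjusted p = 0.203), or 1.15 with normexp, and probes cannot tell near-identical members of this family apart.

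Ggt6, of the γ-glutamyltransferase family that includes enzymes of glutathione turnover, had -4.04, -3.42, -3.25, -2.51 and -3.67 in HV, against -5.59, -5.88, -5.25, -4.60 and -5.67 in ES. The difference was 2.02 ± 0.30 (adjusted p = 0.0998), with only 1 ES array well above background, and 0.66 (adjusted p = 0.131) with normexp. Tlr5, the receptor for bacterial flagellin, differed by 1.29 ± 0.26 (adjusted p = 0.172) without overlap, and Tlr4, the receptor for lipopolysaccharide, by 0.85 ± 0.29 (adjusted p = 0.324), or 1.45 ± 0.25 and 1.13 ± 0.18 without HV replicate 5, in a list of innate sensors with 11 of 13 members higher and a median of 0.12, which was 0.18 without HV replicate 5 and 0.22 without HV replicate 4. With normexp Tlr5 differed by 0.62. Macrophage and monocyte markers were higher for 9 of 11 tested members, none at an unadjusted p under 0.05, with a median of 0.09 and a summed linear level of 51.4 to 91.4 in HV against 13.1 to 66.4 in ES. That median was -0.08 without ES replicate 2, -0.0066 without HV replicate 3, -0.0029 without ES replicate 4 and 0.30 without HV replicate 4, so it had no settled direction; their part in the Tlr values was not tested. Stbd1, which tethers glycogen to membranes, had 4.17, 4.11, 3.62, 4.68 and 3.23 in HV, against 2.41, 2.72, 3.06, 2.73 and 2.94 in ES, and differed by 1.19 ± 0.25 (adjusted p = 0.172), or 1.37 ± 0.21 (adjusted p = 0.0613) for Stbd1 without HV replicate 5.

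The remaining named genes that were higher in HV came from several functions. Rab27b, a small GTPase of vesicle release, had the smallest p among them: it was -2.06, -1.70, -2.48, -2.06 and -2.42 in HV, against -4.06, -3.25, -3.90, -3.71 and -3.44 in ES, a difference of 1.53 ± 0.19 (adjusted p = 0.0617), or 0.83 with normexp. Its close relative Rab27a lay the other way, as given with the genes higher in ES. Srd5a1, the steroid 5α-reductase that converts testosterone to dihydrotestosterone and also inactivates glucocorticoids, had -1.96, -1.95, -2.01, -1.85 and -1.92 in HV, against -2.92, -2.88, -2.39, -2.73 and -2.98 in ES. The 5 HV arrays lay within a narrow band above all ES arrays, and the difference was 0.84 ± 0.12 (adjusted p = 0.0925), or 0.52 with normexp. Ppia, cyclophilin A, which is often used as a reference gene in PCR, had 3.53, 3.49, 3.50, 3.56 and 3.44 in HV, against 2.73, 2.99, 3.01, 3.07 and 3.09 in ES, a difference of 0.52 ± 0.09 (adjusted p = 0.153). Fam83d, a protein of the mitotic spindle, differed by 1.71 ± 0.33 (0.9996 with normexp), and the membrane protein Tmem98 by 0.60 ± 0.12 (adjusted p = 0.153 for each). Igf1, the insulin-like growth factor that promotes muscle growth, had 1.54, 1.55, 1.56, 1.26 and 1.39 in HV, against 0.91, 0.66, 0.97, 0.11 and 0.95 in ES, and differed by 0.74 ± 0.17 (adjusted p = 0.203).

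**Figure D2:**
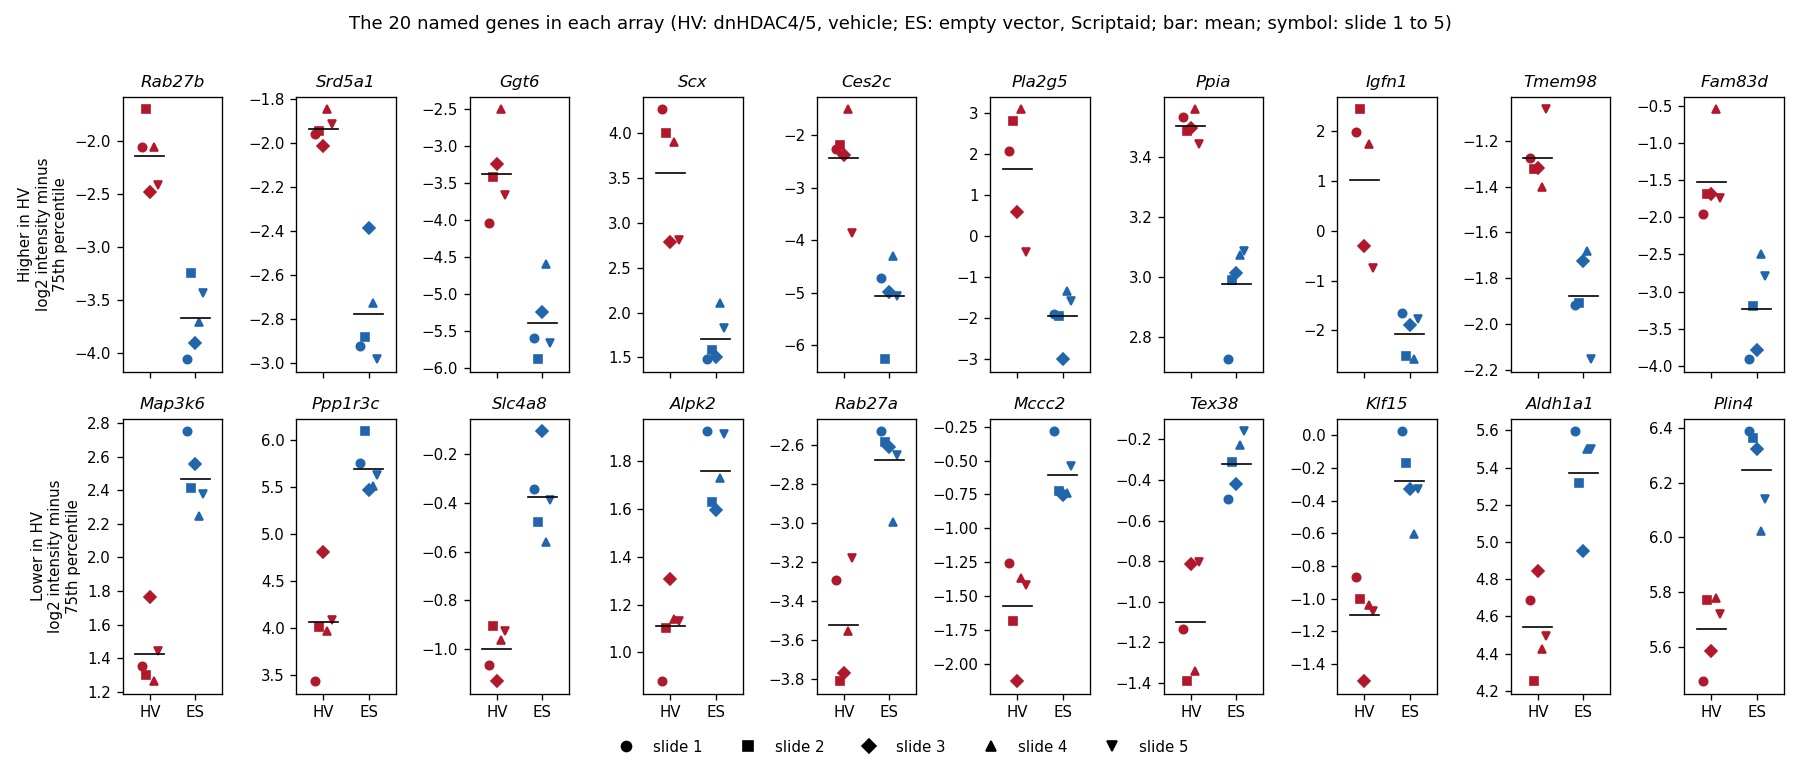
Log2 intensity minus the array's 75th percentile for the 20 named genes on each array, HV (red) left of ES (blue), with the 10 genes higher in HV above and the 10 lower in HV below; bars are group means and symbols mark slides. In each panel the HV and ES arrays do not overlap, which the rule for naming genes required, and the vertical scales differ.

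Tendon cell markers were the list farthest from the median of all genes. All 11 tested members were higher in HV, 10 of them at an unadjusted p under 0.05 against 4.96% of all genes, with a median of 1.42. Scx, scleraxis, the transcription factor of tendon progenitors, had 4.27, 4.00, 2.79, 3.90 and 2.81 in HV, against 1.48, 1.58, 1.50, 2.11 and 1.83 in ES. It was the only member whose groups did not overlap, with a difference of 1.85 ± 0.30 (adjusted p = 0.144). Tnmd, tenomodulin, a membrane protein of mature tendon cells, had 1.46, 1.70, 0.96, -0.01 and 1.68 in HV, against -1.33, -0.03, -0.60, -0.60 and 0.22 in ES, a difference of 1.63 ± 0.37 (adjusted p = 0.203). Comp, a cartilage and tendon matrix protein, had 2.99, 4.01, 2.77, 0.97 and 2.51 in HV, against 0.70, 1.42, 0.01, 1.16 and 0.73 in ES, a difference of 1.85 ± 0.48 (adjusted p = 0.231). In these matrix genes HV replicate 4 was the HV array that fell among the ES arrays, whereas for Scx it was not low. Without HV replicate 4 the list median was 1.76 with 11 of 11 members at an unadjusted p under 0.05, and limma passed Col11a1, a fibrillar collagen chain of cartilage and tendon (1.77 ± 0.16, adjusted p = 0.0119).

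The summed linear level of the tendon markers lay between 57.9 and 147 in HV and between 31.8 and 59.8 in ES. Within slides, the median difference of the list was above 0 on 4 of 5 slides and ranged between -0.04 and 2.79. When all 4 groups shared one estimate of the spread, 3 of the 11 members had an unadjusted p under 0.05. Fibroblast markers lay higher for 11 of 14 members with a median of 0.22. At an unadjusted p under 0.05, 4 of these markers were higher (4.96% of all genes were) and 1 lower (6.33% of all genes). They were led by Col1a1, type I collagen, with 0.82 ± 0.30 (adjusted p = 0.363), and their summed level was 288 to 682 in HV against 441 to 590 in ES. Adipocyte markers had a median of 0.78 with 0 of 8 members at an unadjusted p under 0.05 and a wide spread: Adipoq, the fat hormone adiponectin, had -2.99, 1.17, 1.37, 0.15 and -3.31 in HV, against -1.77, 2.19, -4.04, -0.97 and -3.28 in ES. Leaving out 1 array moved the adipocyte median between 0.27 (without HV replicate 3) and 1.54 (without ES replicate 2), and the fibroblast median between 0.12 (without HV replicate 1) and 0.33 (without HV replicate 4). The part of tissue dissected with the muscle in these values was not tested.

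**Figure D3:**
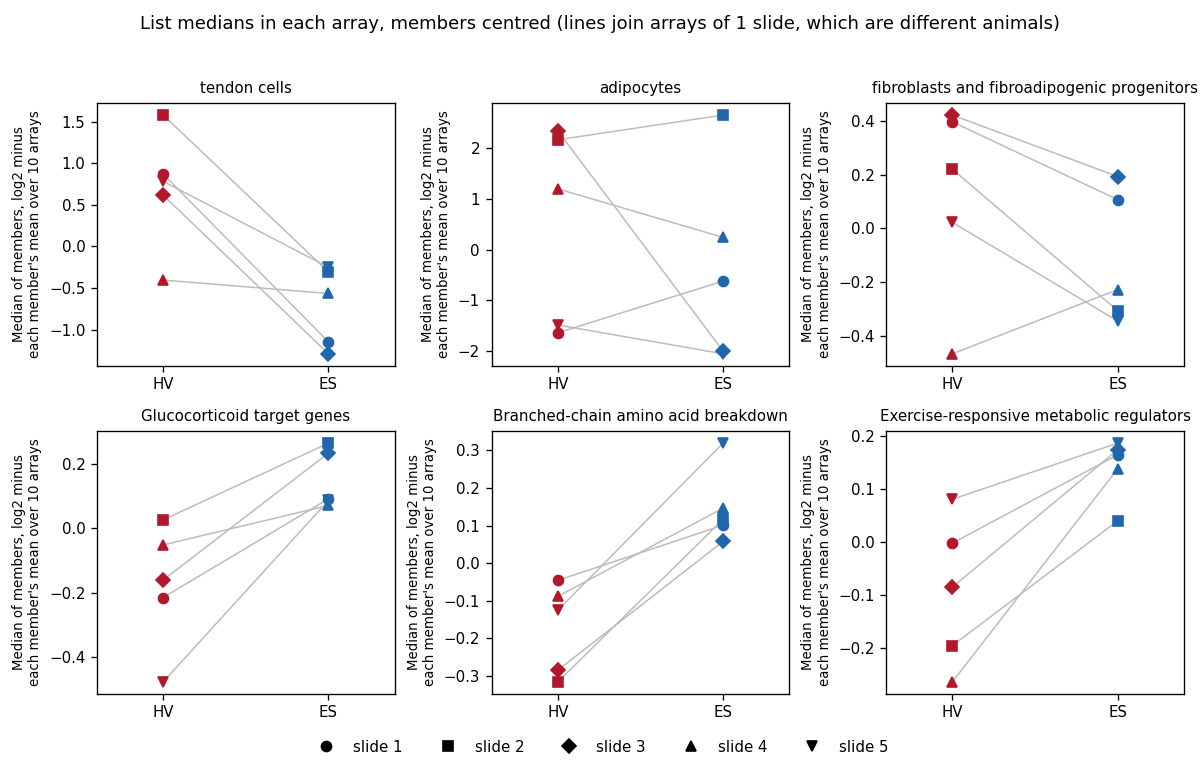
Median over the members of 6 gene lists on each array, after centring each member on its mean over the 10 arrays (log2); HV arrays are on the left in red, ES arrays on the right in blue, and grey lines join the arrays of a slide. For tendon markers all HV arrays but replicate 4 lie above all ES arrays, for the glucocorticoid, branched-chain and exercise lists the HV array is the lower on every slide, and adipocyte markers vary within both groups.

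Turning to the genes that were lower in HV than in ES, Map3k6, a stress-activated kinase of the MAP kinase cascades, had the smallest p of all. It was 1.35, 1.30, 1.77, 1.26 and 1.44 in HV, against 2.75, 2.41, 2.55, 2.25 and 2.38 in ES, a difference of -1.04 ± 0.13 (adjusted p = 0.0617). Ppp1r3c, a glycogen-targeting subunit that brings protein phosphatase 1 to glycogen and favours its synthesis, was 3.43, 4.01, 4.81, 3.97 and 4.09 in HV, against 5.76, 6.09, 5.47, 5.50 and 5.62 in ES. All HV arrays lay below all ES arrays, and the difference was -1.63 ± 0.23 (adjusted p = 0.0925), the largest in size among the 10 genes named first in this direction. Thus within the glycogen list, whose median was -0.03, Ppp1r3c and Stbd1 stood at opposite ends. Rab27a, a GTPase of lysosome-related organelles, had -3.29, -3.81, -3.77, -3.55 and -3.18 in HV, against -2.53, -2.58, -2.61, -2.99 and -2.65 in ES, a difference of -0.85 ± 0.15 (adjusted p = 0.149). It was -0.21 (adjusted p = 0.582) with normexp and -0.89 (adjusted p = 0.0204) in the series matrix values, so the contrast with Rab27b in size depends on the background correction.

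Glucocorticoid target genes, which the steroid's receptor turns on in muscle and which favour protein breakdown and fuel release, lay lower in HV for 17 of 21 tested members. Of these 8 had an unadjusted p under 0.05 (6.33% of all genes did in that direction), 5 did not overlap (1.69% of all genes), and the list median was -0.41. Klf15, a transcription factor that glucocorticoids induce and that drives amino acid breakdown, had -0.86, -1.003, -1.51, -1.04 and -1.08 in HV, against 0.03, -0.17, -0.33, -0.60 and -0.33 in ES, a difference of -0.82 ± 0.15 (adjusted p = 0.153), or -1.36 (adjusted p = 0.419) with flagged spots kept. Fkbp5, a chaperone of the receptor and one of its most sensitive targets, had -1.78, -0.89, -0.95, -1.50 and -1.47 in HV, against -0.39, 0.27, -0.60, -0.78 and -0.12 in ES, a difference of -0.99 ± 0.23 (adjusted p = 0.203). Neither gene's groups overlapped. Foxo1, a factor of fasting and atrophy, differed by -0.59 ± 0.16 (adjusted p = 0.242), Ddit4, an inhibitor of mTORC1, by -0.62 ± 0.20 (adjusted p = 0.302) and Dusp1, a MAP kinase phosphatase, by -0.84 ± 0.29 (adjusted p = 0.328). The ubiquitin ligase Trim63, a marker of atrophy, had -0.42 ± 0.40 with overlapping groups (-0.09 without ES replicate 3 and -0.07 with edge spots), and the 4 members that were higher had no unadjusted p under 0.05. Without HV replicate 5 the list median was -0.23, with 7 members lower and 1 higher at an unadjusted p under 0.05.

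Breakdown of the branched-chain amino acids leucine, isoleucine and valine, which takes place in muscle mitochondria, was the next list. Of 16 tested members 15 were lower in HV, 7 at an unadjusted p under 0.05 and 5 without overlap, and the median was -0.26. Over all genes, 6.33% were lower at such a p and 1.69% were lower without overlap. Mccc2, a subunit of the leucine pathway's methylcrotonyl-CoA carboxylase, had -1.26, -1.69, -2.13, -1.37 and -1.42 in HV, against -0.28, -0.72, -0.76, -0.74 and -0.54 in ES, a difference of -0.96 ± 0.17 (adjusted p = 0.153). Ivd, isovaleryl-CoA dehydrogenase, had 4.36, 4.18, 4.25, 4.15 and 4.37 in HV, against 4.75, 4.87, 4.51, 4.81 and 4.99 in ES, a difference of -0.52 ± 0.11 (adjusted p = 0.172). Dbt and Bckdha, subunits of the branched-chain ketoacid dehydrogenase complex, differed by -0.57 ± 0.14 (adjusted p = 0.218) and -0.52 ± 0.15 (adjusted p = 0.259). Bcat2, the aminotransferase of the first step, was nearer to 0, with -0.10 ± 0.19 (adjusted p = 0.877), and its sign turned in 2 alternatives: 0.25 with the mean of all probes and 0.0019 without HV replicate 5. Klf15 is in this list and in the glucocorticoid list.

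Regulators that respond to exercise were lower in HV for 19 of 21 tested members, with a median of -0.26. At an unadjusted p under 0.05, 7 of them were lower (6.33% of all genes were). Ppara, the nuclear receptor that drives fatty acid oxidation, had 1.94, 1.48, 1.83, 1.20 and 1.76 in HV, against 2.81, 2.01, 2.69, 2.32 and 2.29 in ES, without overlap and with a difference of -0.78 ± 0.19 (adjusted p = 0.211). Ppargc1a, the coactivator PGC-1α of mitochondrial biogenesis, had 2.93, 2.69, 2.55, 2.94 and 2.66 in HV, against 3.22, 3.03, 3.51, 2.88 and 2.99 in ES, a difference of -0.37 ± 0.14 (adjusted p = 0.365). Lpin1, a coactivator and phosphatidate phosphatase, differed by -0.47 ± 0.15 (adjusted p = 0.280). Slc2a4, the insulin-responsive glucose transporter GLUT4 and a MEF2 target, had -0.14 ± 0.15 (0.28 in the series matrix values), and Hk2, hexokinase 2, -0.10 ± 0.10 (-0.05 without ES replicate 3). Without ES replicate 1 or without ES replicate 3, 4 members of the list had an unadjusted p under 0.05, and without HV replicate 4, 5 lower and 1 higher did. Genes of fatty acid uptake and oxidation were lower for 19 of 23 members with a median of -0.19, but only Pdk4, the kinase that shuts pyruvate out of oxidation, and Cpt1b, the mitochondrial fatty acid importer of muscle, had an unadjusted p under 0.05. Pdk4 had -0.51 ± 0.15 (adjusted p = 0.301) over 4 HV and 3 ES arrays (-0.19 with flagged spots kept), and Cpt1b -0.26 (-0.56 with the mean of all probes). Without ES replicate 1, 3 or 4 in turn 0 of these members had such a p, and without HV replicate 4 the list median was -0.11. Subunits of oxidative phosphorylation had 21 of 26 members higher with a median of 0.12, but of -0.12 in the series matrix values.

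**Figure D4:**
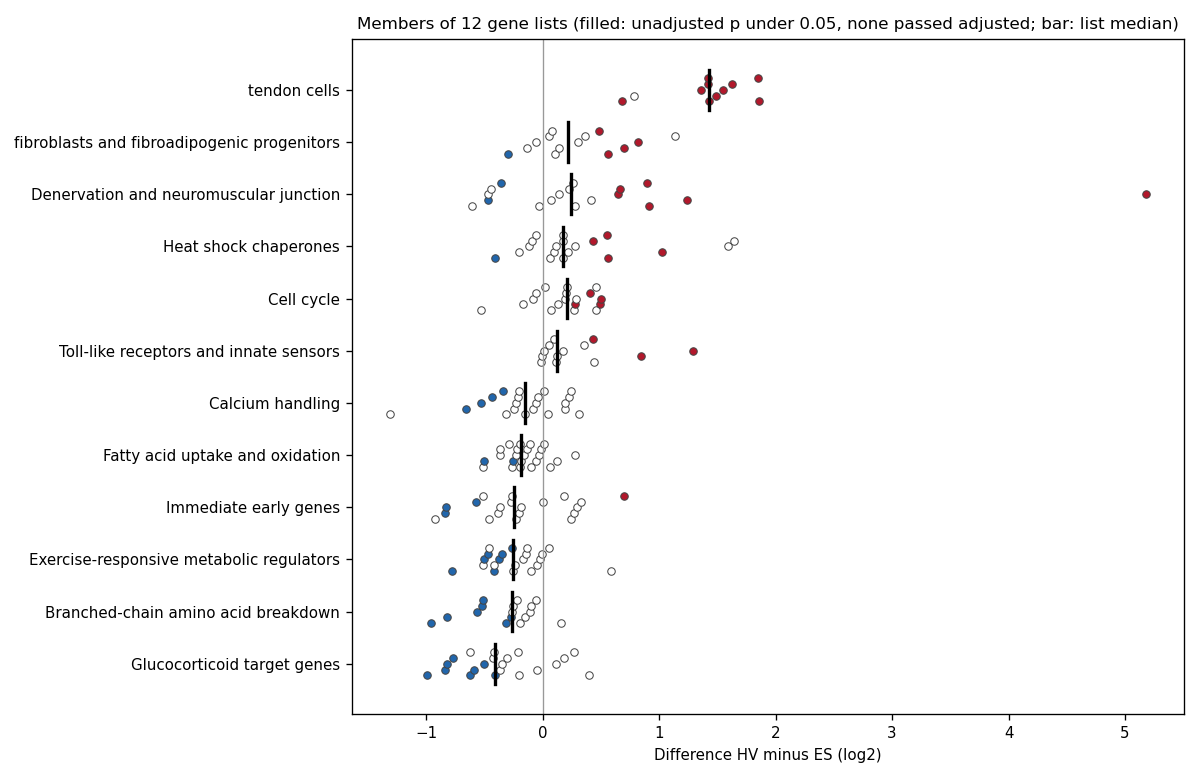
Difference HV minus ES (log2) of every tested member of 12 gene lists, with filled points for an unadjusted p under 0.05 and a black bar at the list median. Tendon markers lie right of 0, the glucocorticoid, branched-chain and exercise lists mostly left of 0, and the far point of the denervation list is Chrna9; none of the points passed the adjusted test.

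MEF2 factors and known targets of MEF2 or class IIa deacetylases were spread about 0, with 9 members higher, 11 lower and a median of -0.08. Those with an unadjusted p under 0.05 were 4, all lower in HV (6.33% of all genes were lower at such a p). Klf2, a Krüppel-like factor controlled by MEF2 in endothelium and muscle, had 2.03, 1.99, 2.36, 0.89 and 1.46 in HV, against 2.39, 2.81, 2.66 and 2.45 in ES, where the spot of replicate 1 was left out. The groups did not overlap, and the difference was -0.83 ± 0.27 (adjusted p = 0.319). Klf2 depends on the spots left out: it differed by -0.12 (adjusted p = 0.753) with flagged spots kept and by -0.13 (adjusted p = 0.758) in the series matrix values. Its promoter, on the plus strand of chr8:72318812-72319111 in RefSeq on GRCm38.p6, is shown because it holds the MEF2 motif (searched on both strands, in capitals), which 3.69% of all promoters of this length do.
Klf2: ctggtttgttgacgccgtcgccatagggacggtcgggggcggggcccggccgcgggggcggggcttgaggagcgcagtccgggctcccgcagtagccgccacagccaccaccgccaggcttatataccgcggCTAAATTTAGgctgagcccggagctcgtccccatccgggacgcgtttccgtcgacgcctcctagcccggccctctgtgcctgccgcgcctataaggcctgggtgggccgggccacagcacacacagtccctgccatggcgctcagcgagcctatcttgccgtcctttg
The motif starts 118 bases before the start of the gene, and 2 of the 17 genes of this list with a promoter in the table held one. Klf4, of the same family, differed by -0.57 ± 0.20 (adjusted p = 0.328).

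Probes for the native transcripts give no check of the vectors: whether they can bind the vector transcripts is unknown here. Hdac4 was 1.42, 1.45, 1.06 and 1.02 in HV, where the spot of replicate 4 was left out, against 1.01, 1.21, 0.97, 1.15 and 0.40 in ES, a difference of 0.29 ± 0.18 (adjusted p = 0.589), or 0.15 without ES replicate 5. Hdac5 was 3.21, 3.07, 3.09, 3.19 and 3.34 in HV, against 3.26, 3.60, 3.63, 3.32 and 3.53 in ES, a difference of -0.28 ± 0.11 (adjusted p = 0.369). Both pairs of groups overlapped. Of 9 tested histone deacetylase genes, Hdac5 and Hdac8 (-0.34 ± 0.15, or -0.06 with normexp) had an unadjusted p under 0.05. Genes that histone deacetylase inhibitors often raise in cultured cells had 12 members higher and 15 lower in HV and a median of -0.09. Among histone genes, the linker histone H1f4 had 0.44, 0.46, 1.03, 0.66 and 0.48 in HV, against -0.10, 0.01, -0.15, -0.05 and 0.16 in ES, a difference of 0.64 ± 0.13 (adjusted p = 0.172), while the list median was 0.00.

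Heat shock chaperones were higher in HV for 14 of 19 members, with a median of 0.18. At an unadjusted p under 0.05, 4 were higher (4.96% of all genes were) and 1 lower (6.33% of all genes). Without HV replicate 2 or 3, or without ES replicate 1, 2 chaperones were higher at such a p. With the series matrix values 1 was higher and 1 lower, and with the mean of all probes 1 was higher and 2 lower. Hspb8, a small chaperone that works with Bag3 in muscle, had 6.28, 6.24, 5.85, 6.37 and 5.90 in HV, against 5.51, 5.58, 5.50, 5.61 and 5.65 in ES, without overlap and with a difference of 0.56 ± 0.12 (adjusted p = 0.192). Hspa1a, the inducible HSP70, varied much more, with 1.88, 4.92, 3.81, 4.79 and 0.12 in HV against 0.56, 1.48, 1.53, 2.44 and 1.55 in ES, a difference of 1.59 ± 0.84 (adjusted p = 0.511). Without HV replicate 5 the difference of Hspa1a was 2.34. The fits without HV replicate 3 and without HV replicate 4 each gave 0.21. Each fit chooses the brightest probe anew, so this 0.21 comes from another probe than the printed values. It does not show the weight of either array. Among circadian genes, Usp2, a clock-controlled deubiquitinase, differed by -0.57 ± 0.12 (adjusted p = 0.172) and Dbp, a clock output factor, by 0.42 ± 0.12 (adjusted p = 0.247), and the list median was -0.02. Plpp7, a protein of the nuclear envelope of muscle, had 3.55, 3.24, 4.07, 3.40 and 4.38 in HV, against 4.48, 4.62, 4.47, 4.53 and 4.69 in ES, a difference of -0.83 ± 0.20 (adjusted p = 0.222). Scd2, a stearoyl-CoA desaturase, was higher by 0.74 ± 0.15 (adjusted p = 0.172), and Plin4, a lipid droplet coat protein, had a difference of -0.58 ± 0.11 (adjusted p = 0.153). The other named genes that were lower in HV were the bicarbonate transporter Slc4a8 (-0.62 ± 0.11), the kinase Alpk2 (-0.64 ± 0.11), Tex38 (-0.78 ± 0.14) and the retinaldehyde dehydrogenase Aldh1a1 (-0.83 ± 0.15), at an adjusted p of 0.149 for the first pair and 0.153 for the second.

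Lists of fast and slow fibre genes, glycolysis, proteasome, atrophy and autophagy, the unfolded protein response, interferon response and antigen presentation had medians between 0.00 and 0.16. In the series matrix values the median was -0.30 for fast fibre genes and -0.29 for glycolysis, and without ES replicate 1 that of slow fibre genes was -0.06. Of calcium handling genes 14 of 21 were lower in HV with a median of -0.15, and of cell cycle genes 14 of 18 were higher with a median of 0.21. Each had 4 members at an unadjusted p under 0.05 in that direction, beside 6.33% of all genes lower and 4.96% higher. Immediate early genes were lower for 13 of 20 members with a median of -0.25. Their median was -0.13 without HV replicate 1 and -0.43 without HV replicate 2, that of calcium genes was -0.25 without HV replicate 4, and 2 cell cycle genes were higher at such a p without any one of HV replicates 1, 2 and 5 and ES replicates 1 and 5. Red blood cell markers were lower for 5 of 5 tested members with a median of -0.40, and those of neutrophils and mast cells had 3 members higher and 5 lower with a median of -0.24, which was 0.44 without ES replicate 3.

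Each named gene had 1 direction in HV minus ES but could have it from either side, so both groups are given against the same 5 EV arrays, in the model of all 4 groups. These comparisons share their EV arrays, so their values are not independent. EV and HV were legs of the same vehicle animals, whereas ES came from other animals, and the model has no term for the animal. HV minus EV thus compares legs of the same animals and ES minus EV different animals, which their SEs do not take into account. Of the genes higher in HV, Igfn1 was 2.90 ± 0.53 for HV minus EV and -0.20 ± 0.53 for ES minus EV, and Stbd1 was 1.23 and 0.04. By contrast Srd5a1 was 0.11 ± 0.20 for HV minus EV and -0.73 ± 0.20 for ES minus EV, Igf1 was 0.23 and -0.51, and Ankrd1 was 0.29 and -1.26. The tendon list had a median of 0.23 for HV minus EV and -1.11 for ES minus EV.

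Of the genes lower in HV, Map3k6 was -0.11 ± 0.16 for HV minus EV and 0.93 ± 0.16 for ES minus EV, Slc4a8 was 0.00 and 0.63, Fkbp5 was 0.11 and 1.1, and Plin4 was 0.09 and 0.68. Ppp1r3c lay on both sides, with -0.70 ± 0.26 and 0.93 ± 0.26. Plpp7 was -0.82 for HV minus EV and 0.00 for ES minus EV. The values of Mccc2, 0.38 and 1.34, rest on EV replicate 5, which read -4.59 beside -1.79 to -0.97 on the other EV arrays. The glucocorticoid list had a median of 0.09 for HV minus EV and 0.52 for ES minus EV, the branched-chain list -0.09 and 0.18, and the exercise list -0.03 and 0.20, beside 0.00 and 0.02 over all genes.

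**Figure D5:**
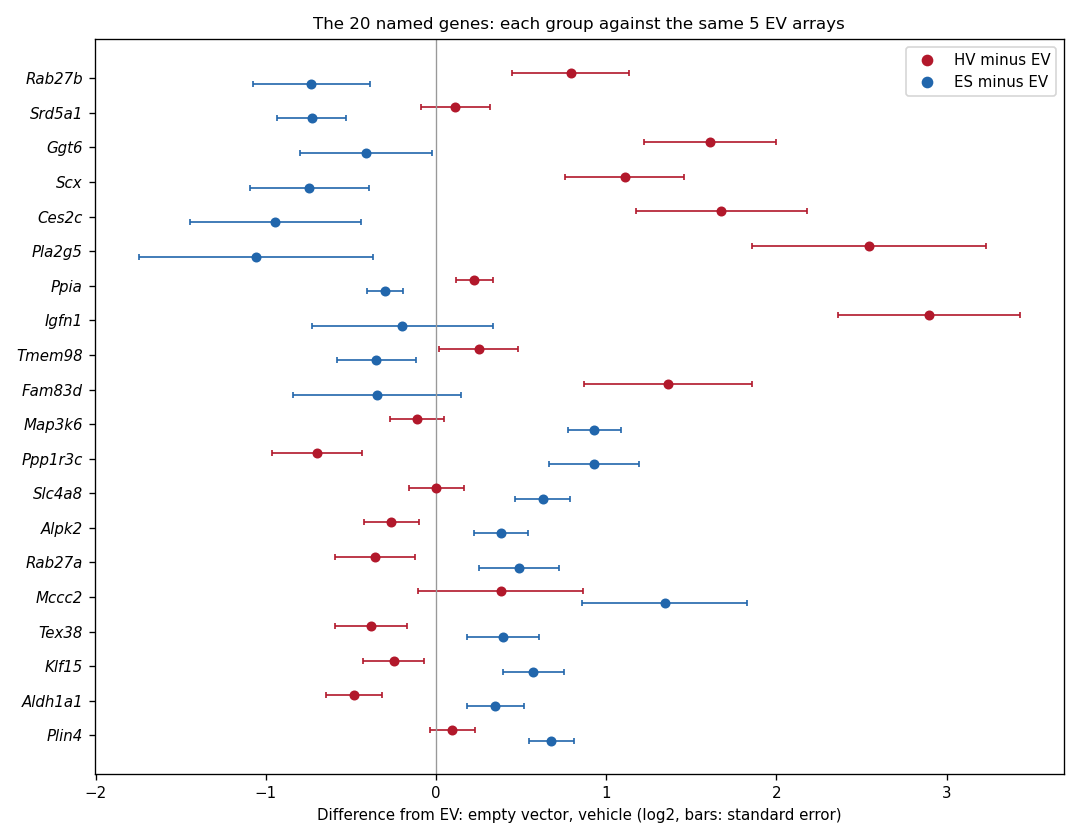
Difference from the 5 EV arrays (log2, with SE) of the 20 named genes, for HV in red and ES in blue, from the model of all 4 groups. Igfn1, Pla2g5 and Ggt6 lie right of 0 in HV, and Map3k6, Plin4 and Slc4a8 lie near 0 in HV and right of 0 in ES. None of these differences from EV passed the adjusted test.

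Arrays with the same replicate number lay on the same slide and were scanned together, so the difference can also be read within slides. For all 10 named genes higher in HV the difference was above 0 on 5 of 5 slides, and for all 10 lower it was below 0 on all 5, which groups without overlap must give. Within slides, Rab27b ranged between 1.02 and 2.00, Igfn1 between 1.02 and 4.95, Map3k6 between -1.40 and -0.79, and Ppp1r3c between -2.33 and -0.66. The list medians within slides lay between -0.68 and -0.06 for glucocorticoid targets, between -0.36 and -0.13 for branched-chain genes, between -0.37 and -0.11 for exercise regulators, and between 0.12 and 0.36 for the denervation list.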

How the data were processed

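Messenger RNA was measured on 1-colour Agilent arrays of the design Agilent-014868, from 100 ng of RNA labelled with Cy3, per the labels' protocols. The authors deposited scanner files, whose processed intensity Feature Extraction 9.5.1.1 wrote after background subtraction, per the file headers. The deposited series matrix holds a ratio, the processed intensity over a constant of each array, used as an alternative.

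Of 45018 spots, 43379 were not controls. Intensities were put on the log2 scale, and each array's 75th percentile was subtracted. Spots outside columns 1 to 77 and rows 11 to 522 were left out as an edge zone, and so were spots marked non-uniform or as population outliers. Of 36275 probes, 20607 were well above background on at least 3 arrays of HV or ES and measured on at least 3 of each, and the brightest stood for each of 14379 genes. Gene names are the files' own, updated through RefSeq for GRCm38.p6, where the accessions of 29555 spots matched. The build of the array's coordinates is not stated, so none is given.

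The 10 arrays entered a limma 3.58.1 fit (R 4.3.3) with a mean for HV and one for ES, tested two-sided with Benjamini-Hochberg adjustment over all genes, and checked on simulated data. Every adjusted p is from limma. An unadjusted p is never a call. The rule named 10 genes in each direction, filled by smallest unadjusted p among genes without overlap and above background on all 5 arrays of the higher group, with 1 and 3 clone names passed over, then the 2 members of smallest p of each list, and Hdac4 and Hdac5. Another 20 list members, such as Musk, Chrna1, Comp, Ivd, Ppargc1a, Bcat2 and Hspa1a, were named after their values were seen. A bound of a fold is taken against the dimmest probe signal well above background. Summed levels of markers are sums of linear values relative to the 75th percentile. The comparison, gene lists and promoter motifs (MEF2, heat shock, glucocorticoid, metal response, E-box and cyclic AMP elements) were chosen with earlier results of these data known, so no list is independent evidence.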

Additional observations from a re-analysis of the deposited data

Results flagged for a closer look

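Among 125 genes in 2 groups each, 9 groups held an array whose gap to the others exceeded Dixon's critical value; chance alone flags about 1 in 20 groups. HV replicate 5 stood out low for Ankrd1 (1.88, next 2.40) and high for Jph2, a junctional membrane protein (5.44, next 4.61). HV replicate 4 stood out high for Fam83d (-0.55, next -1.69). ES replicate 4 stood out high for Chrna9 (-5.13, next -5.90), low for Rab27a (-2.99, next -2.65) and low for the stress factor Xbp1 (0.92, next 1.41). ES replicate 1 stood out low for Ppia (2.73, next 2.99), ES replicate 3 high for Dusp1 (2.81, next 2.07) and ES replicate 5 low for the interferon-induced Ifi44 (-5.01, next -3.33).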

How the results depend on the processing

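limma passed 0 genes in the fit reported, and 0 with normexp, quantile normalization, no filter, the mean of all probes, edge spots included, flagged spots kept or array weights. It passed 1 with median centring (Rab27b), 3 with the series matrix values (Rab27a, the clone AK082074 and Map3k6), 2 with the stricter background filter (Rab27b and Map3k6), 1 in the model of all 4 groups and 1 with trend and robust variances (Map3k6 in both). Without 1 array the count ranged between 0 and 7: 7 without HV replicate 5 (with Chrna9, Pla2g5, Ces2c, Rab27b, Sgms2, Cd82 and A930003A15Rik), 6 without HV replicate 3, and 1 without HV replicate 1, HV replicate 4 or ES replicate 3. Counts at an unadjusted p under 0.05 ranged between 1198 and 2073.

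Same-numbered arrays share a slide but come from different animals, so the numbers do not pair animals. Their deviations correlated by 0.08 to 0.28, above 0 in all 5 pairs. Between arrays of different slides the correlations ranged between -0.32 and 0.34. The fit reported has no term for the slide. With the replicate block 1 gene passed, Ggt6 (2.02, adjusted p = 0.0419), and with the slide as a random block (correlation 0.17) 6 did (Rab27b, Map3k6, Ggt6, Ppp1r3c, Srd5a1 and A930003A15Rik). Among the 125 genes recomputed under the alternatives, directions reversed for 6: Cd3e with normexp (0.025), Slc2a4 with the series matrix values (0.28), Cryab, Tgm2 and Bcat2 with the mean of all probes (-0.54, 0.16 and 0.25), Bcat2 without HV replicate 5 (0.0019; -0.24 at the lowest without another array), and Cd79b without ES replicate 2 (-0.0045; 0.38 at most without another array). The probes of Vegfa, Hspa4, Cryab, Cdyl and Mmd disagree in sign. The median of the tendon list lay between 1.17 and 1.76 over all 24 alternatives, and those of the glucocorticoid list between -0.48 and -0.23. Causes were not tested.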
